A study of Homo sapiens with 2 samples.

Results

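The 10 genes described here are regulators of the mesendoderm, the embryonic cell population that gives rise to mesoderm and endoderm. Members were the genes TBXT (brachyury), MIXL1, EOMES, GSC, SOX17, FOXA2, GATA4, GATA6, LHX1 and CER1. They were chosen by name, though with earlier results of these data known. Every probe whose RefSeq accession maps to one of these genes was taken, which gave 12 probes for the 10 genes among 22439 genes that could be named on the array. GATA4 had 3 probes and each of the other genes had 1. RNA came from H9 cells, an established human embryonic stem cell line grown in TeSR-E8 medium without feeder cells. The line had been moved from vitronectin to Matrigel, a basement membrane preparation, on which the study distinguished typical colonies (substate 1) from colonies with wide spaces between the cells (substate 2). Substate 1 cells stained strongly for the R-10G epitope and hardly for vimentin, and substate 2 cells stained weakly for the epitope and strongly for vimentin. The substate 1 RNA was from passage 35 and the substate 2 RNA from passage 50, each on its own array. The methods of the study give passage 35 as the passage at which cells were put on Matrigel. Passage, and time on Matrigel with it, therefore cannot be told apart from substate. With 1 array per substate no test was possible, and every difference compares these 2 arrays only.

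In the embryo, epiblast cells enter the primitive streak when Nodal, WNT and BMP signals reach them, and they then switch on T-box and homeobox factors. TBXT and EOMES are T-box factors of the streak, and MIXL1, GSC and LHX1 are homeobox factors of the streak and of the organizer at its anterior end. SOX17, FOXA2, GATA4 and GATA6 are transcription factors of the endoderm, although FOXA2 also acts in the floor plate of the neural tube, and the GATA factors also act in the heart and in extraembryonic endoderm. CER1 (Cerberus) is secreted and binds Nodal and BMP ligands. Pluripotent stem cells in the primed state hold most of these genes at low levels until they are induced to differentiate.

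Each spot carried flags that the scanner software set from the spot and its local background. The weaker flag marks a signal that is positive and significantly over background. The stronger flag, well above background, adds a margin over the noise of the background, and it is the criterion of detection here. The lowest signal of a gene probe with the stronger flag in units of processed intensity, was 14.5 for substate 1 and 15.03 for substate 2. The 308 negative control spots had a median of 3.31 for substate 1 and 3.54 for substate 2. For substate 1 none of them had the stronger flag, with a highest value of 7.29, whereas for substate 2 the flag was set for 1 spot, at 33.5. Intensities of different probes depend on the probe, so that levels are compared between the arrays and not between genes.

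Few of the mesendoderm regulators were detected in either substate. On the substate 1 array 3 of the 10 genes had a probe well above background, FOXA2, LHX1 and GATA4, against 74.4% of all named genes. On the substate 2 array 2 of the 10 genes did, FOXA2 and LHX1, against 72.5% of all named genes. The other 7 genes, TBXT, MIXL1, EOMES, GSC, SOX17, GATA6 and CER1, were well above background on neither array. These 7 genes are called not detected below, which says only that their signals did not pass the margin of the array. The same cells had high signals of the pluripotency genes. The brighter POU5F1 probe read 168161 in substate 1 and 181073 in substate 2, NANOG read 11911 and 13991, and SOX2 read 18125 and 19014. All 9 pluripotency marker genes with a named probe were detected on both arrays, and none of them differed by 2-fold.

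**Figure D1:**
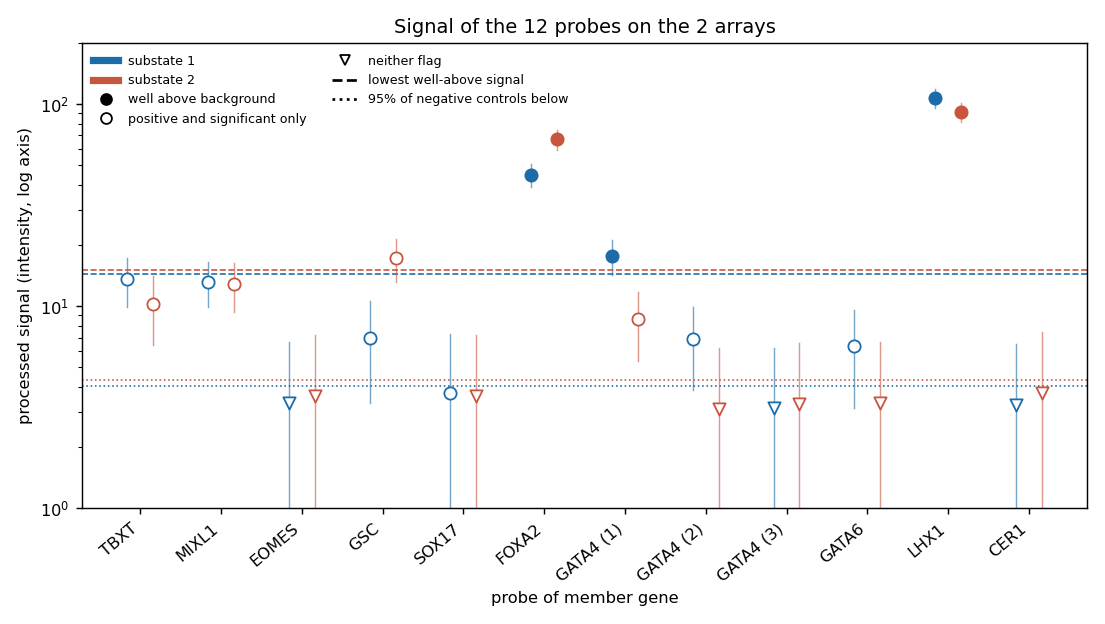
Processed signal (intensity, log axis) of each of the 12 member probes in substate 1 (blue) and substate 2 (red), 1 spot per point, with bars of the scanner software's own error (cut at 1). Filled circles are well above background, open circles carry the weaker flag only and triangles carry neither. Dashed lines mark the lowest signal flagged well above background and dotted lines the 95th percentile of the negative control spots. FOXA2 and LHX1 are the genes with filled circles on both arrays.

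Promoter sequences are shown for 3 genes that were not detected. GSC is shown as the member past a Z-score limit, and MIXL1 and CER1 as those whose promoter held a match to a binding motif of FOXH1, the factor that carries the Nodal signal to the genome. The sequences are the 250 bases before the start site in RefSeq (build GRCh38.p14), 5′ to 3′ on the strand of the gene, with motif matches in capitals. The motif searched was AATNCACA on both strands. MIXL1 lies at chr1:226223414-226223663 on the plus strand, and its match begins 249 bases before the start on the opposite strand. CER1 lies at chr9:14722734-14722983 on the minus strand, and its match begins 154 bases before the start. GSC lies at chr14:94770114-94770363 on the minus strand and held no match.
MIXL1: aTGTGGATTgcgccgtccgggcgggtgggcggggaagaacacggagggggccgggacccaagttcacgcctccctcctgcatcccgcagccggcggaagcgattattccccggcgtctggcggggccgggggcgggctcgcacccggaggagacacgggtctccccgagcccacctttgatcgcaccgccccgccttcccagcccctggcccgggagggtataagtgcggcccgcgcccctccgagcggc
CER1: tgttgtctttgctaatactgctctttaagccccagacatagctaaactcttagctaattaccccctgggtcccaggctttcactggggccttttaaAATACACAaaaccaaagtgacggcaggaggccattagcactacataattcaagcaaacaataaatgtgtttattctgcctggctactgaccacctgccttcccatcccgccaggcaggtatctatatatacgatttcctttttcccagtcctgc
GSC: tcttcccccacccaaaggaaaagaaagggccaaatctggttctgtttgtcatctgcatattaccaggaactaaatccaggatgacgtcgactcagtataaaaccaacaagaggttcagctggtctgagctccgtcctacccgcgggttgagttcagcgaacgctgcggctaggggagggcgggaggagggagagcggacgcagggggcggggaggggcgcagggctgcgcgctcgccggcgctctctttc

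Promoter sequences were at hand for 6 of the 10 genes, MIXL1, EOMES, TBXT, CER1, GSC and GATA6, in 7 windows as TBXT has a pair of start sites. None of these 6 genes was detected. The motif was found in 2.89% of all 35116 promoter windows of that length. A T-box motif (TCACACC), found in 2.76% of all windows, and a GATA site (AGATAA), found in 9.17%, had no match in the 7 windows. The number of CpG pairs was 30 for MIXL1, 23 and 22 for the windows of TBXT, 19 for EOMES, 18 for GSC and 16 for GATA6, all above the median of 11 over all windows. CER1 stood apart with 3, the lower quartile of all windows. A match of letters does not show that a factor binds there.

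FOXA2, a forkhead factor of the endoderm and the floor plate, was the member with the larger difference of the pair measured on both arrays. Its signal was 44.6 ± 5.73 in substate 1 cells and 66.9 ± 7.73 in substate 2 cells (± the error given by the scanner software, 1 spot each). After scaling to the 75th percentile of each array the normalised log2 signal was -2.81 in substate 1 and -2.04 in substate 2. FOXA2 was therefore 1.71-fold higher in substate 2 (log2 difference 0.77). Probes of similar brightness that were printed 10 times on each array gave an SD of 0.21 for a difference of single spots (from the median SD of 13 probes in substate 1 and of 14 in substate 2), so that the difference was larger than the noise between spots. That noise covers the spread of spots within an array. It does not cover the cells, the labelling or differences of hybridisation between the arrays. The Z-score of FOXA2, its difference in units of the SD over all probes, was 1.11, inside the limit of 2 that the study used. Of the 29883 probes measured on both arrays, 1.98% had a difference as high or higher. With normexp background correction, which with its offset shrinks differences between dim signals, the difference was 0.50.

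LHX1, a LIM homeobox factor of the streak and organizer, differed by less than the noise between spots. It had a signal of 107 ± 11.47 in substate 1 cells and 91.2 ± 9.96 in substate 2 cells (± the error given by the scanner software). Its normalised log2 difference was -0.05, against an SD of 0.21 for spots of that brightness, and its Z-score was -0.19. The sign of this small difference turned under normexp correction (0.13). Of the probes measured on both arrays, 90.6% had a larger difference in either direction.

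GATA4, a zinc finger factor of endoderm and heart, had 3 probes that did not give one answer. The first (A_33_P3360363) read 17.7 ± 3.46 in substate 1, well above background, and 8.60 ± 3.21 in substate 2, where it carried the weaker flag only. Since substate 2 has only an upper limit for this probe, the signal was at least 1.03-fold lower in substate 2. The difference of the signals as measured was -0.85 with an SD of 0.69 between spots of that brightness, and under normexp correction it was -0.0026. The second (A_33_P3293456) read 6.87 in substate 1 and 3.10 in substate 2, and carried the weaker flag in substate 1 only. The third (A_23_P384761) read 3.12 and 3.28 and carried neither flag on either array. Detection of GATA4 thus rested on 1 of its 3 probes, close to the lowest signal that was flagged. GATA6, its relative, had 1 probe with 6.38 ± 3.25 in substate 1, with the weaker flag, and 3.33 ± 3.34 in substate 2, with neither flag. Both are values under the detection margin, and their difference is not a measured fold change.

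GSC (goosecoid), a homeobox repressor of the organizer, was the only member past the Z-score limits. Its signal was 6.94 ± 3.62 in substate 1 and 17.3 ± 4.17 in substate 2, a normalised log2 difference of 1.51 with a Z-score of 2.27. The upper limit lay at a difference of 1.34. The probe carried the weaker flag on both arrays and was well above background on neither, although its substate 2 signal was over the lowest flagged signal of that array. Among spots of that brightness the SD of a difference was 0.69 (8 probes in substate 1 and 7 in substate 2). Past the Z-score limits in either direction lay 6.33% of all 58201 probes, and 5.16% of the 25035 probes well above background on neither array lay past the upper limit, so that 1 of 12 probes is near that background. Under normexp correction the difference was 0.45 and the Z-score 1.56, inside the limit.

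The remaining factors of the streak had low signals in both substates. TBXT read 13.6 ± 3.72 in substate 1 and 10.2 ± 3.84 in substate 2, and MIXL1 read 13.3 ± 3.33 and 12.9 ± 3.49. Both carried the weaker flag on both arrays, and their signals exceeded at least 305 of the 308 negative control spots of each array. Their log2 differences, -0.22 for TBXT and 0.15 for MIXL1, were smaller than the SD of 0.69 between spots of that brightness. EOMES read 3.32 in substate 1 and 3.59 in substate 2, which exceeded 157 and 168 of the negative control spots. Both readings are stand-in values of the software, described below, so these counts do not rank its signal.

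SOX17, an SRY-box factor that marks definitive endoderm, read 3.74 in substate 1 and 3.59 in substate 2, above 274 and 167 of the negative control spots. CER1 read 3.26 and 3.73, above 142 and 206 of them. EOMES and CER1 carried neither flag on either array, and SOX17 carried the weaker flag in substate 1 only. For spots without the weaker flag the software writes a small positive stand-in value, so that differences between them are not differences of transcripts. The substate 2 readings of SOX17, GATA6 and the second GATA4 probe are also such values. Of the negative control spots 4 in substate 1 and 6 in substate 2 carried the flag. Counts of control spots under a stand-in value therefore do not rank signals. The background-subtracted signal of CER1 was 2.01 in substate 1 and -2.57 in substate 2, although its count rose. The negative control spots themselves were shifted by 0.28 between the arrays on the normalised scale (medians). EOMES (0.30), CER1 (0.38), the third GATA4 probe (0.26) and SOX17 (0.13) differed by amounts of that order, and the median over all probes well above background on neither array was 0.27.

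**Figure D2:**
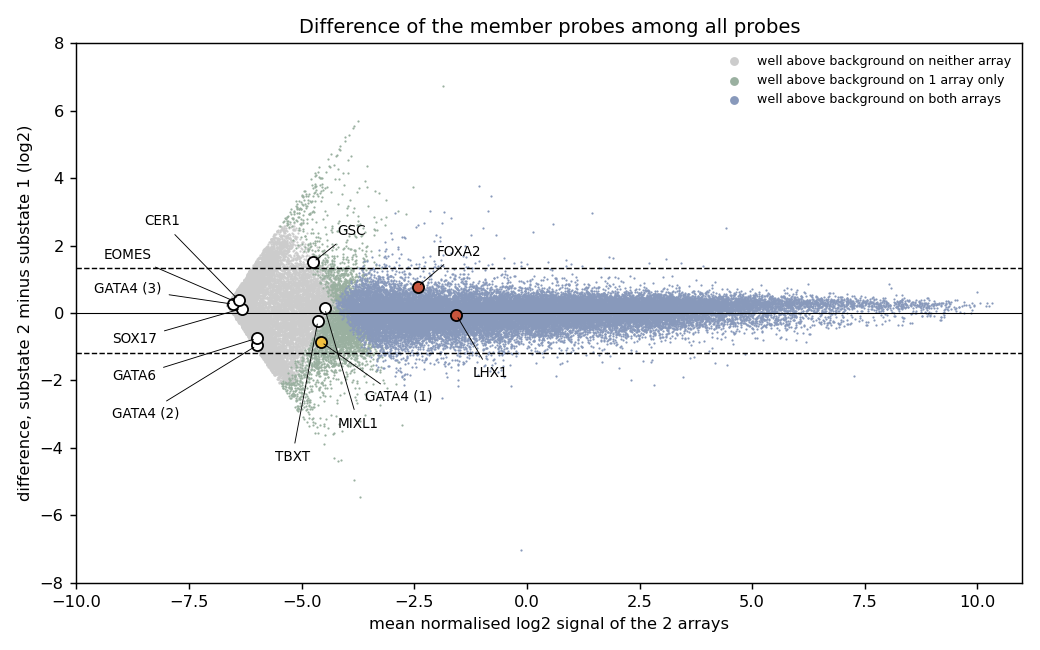
Log2 difference, substate 2 minus substate 1, of every gene probe against its mean normalised log2 signal, coloured by detection, with the 12 member probes outlined in black. Red points are members well above background on both arrays, the yellow point is the GATA4 probe detected in substate 1 only and white points are members detected on neither array. Dashed lines are the Z-score limits, at 1.34 and -1.19. GSC lies above the upper line, in the region of dim probes where differences spread widely.

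By the other criterion, a difference or bound of 2-fold in probes that were detected on 1 or both arrays, 0 of the 3 eligible member probes were higher and 0 were lower. Over all 33166 such probes 1.55% were 2-fold higher and 1.67% were 2-fold lower. With 3 eligible probes a count of 0 is near that background. With the weaker flag as the criterion, 9 probes of 8 genes were detected in substate 1 and 6 probes of 6 genes in substate 2. The 6 genes were TBXT, MIXL1, GSC, FOXA2, GATA4 and LHX1, and each of them carried the weaker flag in substate 1 as well. The 3 probes that carried it in substate 1 only were those of SOX17, GATA6 and the second of GATA4. Over all gene spots the share well above background was also higher on the substate 1 array, 57.4% against 54.7%, and its part in these flags was not tested.

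The signals that induce the mesendoderm were measured next, in lists of pathway genes. Of the Nodal pathway genes 13 of 14 had a named probe, and all 13 were detected on both arrays. None differed by 2-fold, and the median difference was 0.03, against 0.08 over the 16001 genes measured on both arrays. Small differences were measured for SMAD4, the shared SMAD partner (6549 and 5546, -0.05, with 0.22 for its other probe), the receptor ACVR2B (3991 and 3319, -0.08) and the ligand GDF1 (1021 and 917, 0.03). NODAL itself, the ligand, read 150 in substate 1 and 97.6 in substate 2, a log2 difference of -0.43. FOXH1, the nuclear partner of SMAD2 and SMAD3, read 453 and 391 (-0.02). LEFTY1, a Nodal antagonist that Nodal induces, read 2362 and 2796 (0.43). The receptor ACVR1C had a probe that was lower in substate 2 (-0.90) and another, detected in substate 2 only, that was at least 1.69-fold higher, so that its probes disagreed.

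Of the 20 WNT, BMP and FGF pathway genes 16 were detected on both arrays and 4, WNT8A, SP5, FGF4 and FGF8, on neither. Their median difference was -0.02. Among all named genes that were detected on at least 1 array, 1.77% had a probe 2-fold higher and 1.6% had one 2-fold lower, and here 1 of the 16 was 2-fold higher and none was lower. This gene was LEF1, a factor that carries WNT signals, which read 86.4 in substate 1 and 157 in substate 2 (1.05), and which was not past 2-fold under normexp correction. AXIN2, which WNT signals induce, had differences of 0.59 and 0.72 for its probes. The ligand WNT3, which starts the streak in the embryo, read 49.5 and 41.5 (-0.07). BMP4 read 40.9 and 21.9 (-0.71).

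Further genes of the streak and of mesoderm were in part detected. Of 20 genes 7 were detected on both arrays, 2 on one array and 11 on neither, among them CDX2, HAND1, ISL1, MSGN1 and MEOX1. MESP1, a factor of cardiac mesoderm, was well above background in substate 2 only (17.2 and 33.3). It was 2.21-fold higher there as measured, but not past 2-fold under normexp correction. TBX6, a factor of paraxial mesoderm, was well above background in substate 1 only (23.3 and 15.1) and was 1.35-fold lower in substate 2 as measured. Of the 7 genes detected on both arrays 5 were higher and 2 lower. The lower ones were KDR, a receptor of vascular precursors (1250 and 669, -0.71), and TCF15 (5463 and 4587, -0.06). Among the higher ones were PDGFRA (17.0 and 23.4, 0.65), FOXC1 (17.9 and 21.1, 0.43) and EVX1 (1175 and 1290, 0.32). PDGFRA and FOXC1 lay near the lowest flagged signals. On the substate 1 array the median SD between spots of that brightness was 0.60 (8 probes). The median difference of the 7 genes was 0.22.

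Of the endoderm genes other than the members 11 of 12 had a named probe. On both arrays 6 were detected, FOXA3, AFP, TTR, APOA1, CXCR4 and KIT, and HHEX, HNF4A, FOXA1, GATA5 and PRDM1 were detected on neither. None of the 6 differed by 2-fold. The median difference was 0.39, against 0.08 over all genes measured on both arrays, with 4 genes higher and 2 lower in substate 2. Under normexp correction this median was 0.22. CXCR4, a chemokine receptor used to sort definitive endoderm, read 163 and 129 (-0.15). KIT, which is also a receptor of stem cells, was lower by both of its measured probes (-0.48 and -0.44), and the liver genes AFP (0.46) and TTR (0.42) were higher.

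Among 10 genes of the organizer and its secreted antagonists, 7 were detected on both arrays, 1 in substate 2 only and 2, DKK1 and NOTO, on neither. FRZB, a secreted WNT antagonist, read 154 in substate 1 and 380 in substate 2, a log2 difference of 1.49. FST (follistatin), which binds activin, read 646 and 1444 (1.35). Both were more than 2-fold higher and past the upper Z-score limit. SHH, a ligand that the notochord and the floor plate secrete, read 5.36 in substate 1 and 20.1 in substate 2 and was at least 1.58-fold higher, a bound under 2-fold. Its Z-score, from the signals as measured, was 3.19, past the upper limit. In the opposite direction, NOG (noggin), a BMP antagonist, read 48.1 and 23.7 (-0.83), and CHRD (chordin), another one, had differences of 0.05 and -0.18. Since FRZB and FST lie on one side and NOG on the other, the median of -0.04 hides differences in both directions.

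**Figure D3:**
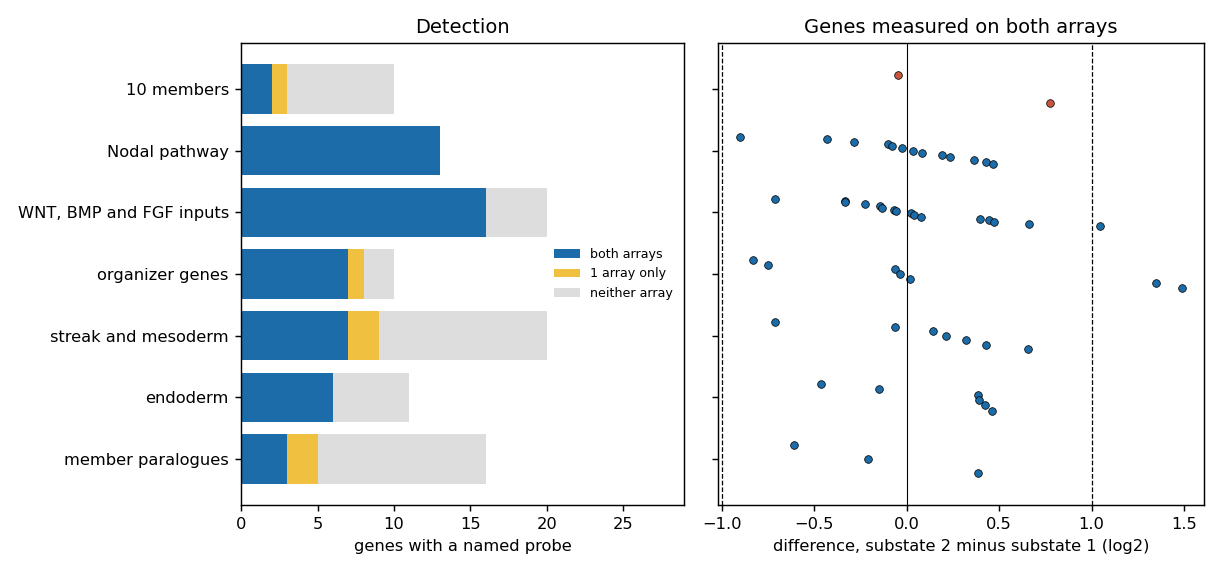
Left, number of genes with a named probe that were detected on both arrays (blue), on 1 array only (yellow) or on neither (grey), for the 10 members and the 6 lists of related genes. Right, log2 difference, substate 2 minus substate 1, of each gene measured on both arrays (mean of its measured probes), with dashed lines at 2-fold. All 13 Nodal pathway genes are detected on both arrays, against 2 of the 10 members.

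The close relatives of the members were mostly not detected either. Of 16 paralogues 3 were detected on both arrays, 2 on one array and 11 on neither. FOXA3, a forkhead relative of FOXA2, read 295 in substate 1 and 339 in substate 2 (0.39), whereas FOXA1 read 3.85 and 3.56. TBX19, the T-box gene most like TBXT, read 387 and 223 (-0.61). DAND5, which belongs with CER1 to a family of secreted antagonists, read 83.2 and 63.1 (-0.21). GATA2 was well above background in substate 1 only (17.8 and 3.80) and was at least 1.04-fold lower in substate 2. No paralogue was past 2-fold. By the Z-score of the signals as measured, GATA2 (-3.34) and a GREM1 probe detected on neither array (-2.68) were past the lower limit. The other GREM1 probe had a Z-score of 0.74.

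Markers of other cell types were counted beside these values. Of 10 neural ectoderm markers 5 were detected in substate 1 and 7 in substate 2, against 74.4% and 72.5% of all named genes. SOX1 was detected in substate 2 only (3.06 and 21.7) and was at least 1.71-fold higher there, a bound under 2-fold. LHX2 (2.32) and POU3F2, 13.3-fold higher as measured, were past 2-fold, whereas PAX6, ZIC1 and SIX3 were detected on neither array. POU3F2 was well above background in substate 2 only, so its ratio rests on a substate 1 signal without the stronger flag. The summed scaled signal of the neural list was 38.3 in substate 1 and 42.5 in substate 2. Such a sum follows the brightest probes, here SOX3 (8219 and 7352) and SIX6 (3137 and 3291), neither past 2-fold. It does not count cells of a type. Of 8 trophoblast markers 2 were detected in each substate, and GATA3, TFAP2A, ELF5, TP63 and CDX2 were detected in neither. CGA was at least 2.12-fold higher in substate 2. The summed signal of that list was 9.83 and 11.04, which follows KRT7 (3039 and 2988). Of 8 markers of extraembryonic endoderm 7 were detected on both arrays, all but SOX7, with a summed signal of 57.7 and 49.4. Several genes of that list, among them its brightest, the laminins LAMA1 and LAMB1, are also expressed by stem cells. The part that cells of these types had in the values of FOXA2, GATA4 and GSC was not tested, and fewer cells of a type and less RNA per cell cannot be told apart in bulk RNA.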

How the data were processed

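RNA of substate 1 and substate 2 cells was measured on 1 single-colour (Cy3) Agilent array each. The authors deposited each array's scanner output, in which, per the file headers, Feature Extraction 11.5.1.1 (protocol GE1_1105_Oct12) had subtracted the background from the intensity of every spot and had set the detection flags. The deposited matrix holds log2 values which, per the methods, were scaled to the 75th percentile of each array.

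Here intensities under 1 were set to 1, log2 was taken, the spots of a probe were averaged without outlier spots, and the 75th percentile over 58201 probes was subtracted. No member spot was an outlier and no gene spot was saturated. The scripts were tested on simulated data. A probe well above background on 1 array was given a bound, the brighter value against the higher of the dim value and the lowest flagged signal of the dim array, written as at least N-fold. Where the dim value was the higher of these, the bound equals the measured ratio and is written as measured. For a probe well above background on neither array, the log2 difference of the measured signals is printed as a description only, since it does not measure a fold change of the transcript. The Z-score was the difference minus its mean (0.07) over all probes, divided by its SD (0.63). Gene differences are means over probes measured on both arrays. Gene names came from matching accessions of the array design to a RefSeq table for GRCh38.p14, which named 31104 of 58201 probes (53.4%), and the rest are in no gene count. The array was annotated on hg19, so that the table was used only for names. Probe sequences were not used here. Normexp (limma 3.58.1, R 4.3.3, offset 50) took median signals, as the files used held no mean signal column, and loess centring had a span of 0.3. Members and lists were chosen with earlier results of these data known. The rule for named genes took all members, POU5F1, SOX2 and NANOG and, in each list, the genes past 2-fold or else those of highest signal (at most 4). Any other gene in the text was chosen after its values were seen. The number of arrays limits the precision.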

Additional observations from a re-analysis of the deposited data

How the results depend on the processing

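Detection depended on the criterion. With the weaker flag, 9 probes of 8 genes were detected in substate 1 and 6 probes of 6 genes in substate 2, in place of 3 probes of 3 genes and 2 probes of 2 genes. Signals over the highest negative control spot gave 5 probes of 5 genes in substate 1 and left 2 and 2 in substate 2. That limit was unlike on the arrays, 7.29 in substate 1 and 33.5 in substate 2, where a single control spot set it. In substate 2 the signals of GSC and MIXL1 exceeded 307 of the 308 control spots, all but that spot. These counts therefore do not compare the substates. Normexp correction moved the difference of FOXA2 from 0.77 to 0.50 and left 0 members above the upper Z-score limit in place of 1. It also left 2 genes of the signalling, streak, endoderm and organizer lists 2-fold higher in place of 4 (FRZB and FST, without LEF1 and MESP1), an alternative chosen after seeing the data. With the mean and SD over probes well above background on both arrays, 2 GATA4 probes passed the lower Z-score limit in place of 0, and GSC still passed the upper one. Quantile normalisation, centring by the median or by loess, the deposited matrix and keeping outlier spots, where each was run, kept the counts of calls among the members and kept FOXA2 between 0.77 and 0.82. The median of all genes measured on both arrays, 0.08, lay between 0.03 and 0.13 under these settings, and the medians of the Nodal, WNT and organizer lists changed sign among them. Matching probes by a gene name column was not run, since the files used have none. No paired analysis was possible because there was a single array for either substate, and for the same reason no array could be left out in turn. Signal over background limits all members but FOXA2 and LHX1.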

Other observations

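Genes that adjoin the members on the chromosome, within 2 positions in the order of start sites, were looked up after the members had been described. LINC00261, a long noncoding RNA gene beside FOXA2, had 2 probes without the stronger flag on either array (3.17 and 3.22 in substate 1, 3.35 and 3.33 in substate 2), although FOXA2 itself was detected on both. LNCNEF, on the other side of FOXA2, had 2 probes that were detected on neither array as well. GATA6-AS1, which adjoins GATA6, read 4.002 and 3.52 in substate 1 and 3.86 and 3.85 in substate 2 for its 2 probes, and was detected on neither array. Of the coding neighbours, LIN9, FREM1, ZDHHC21 and AATF had a named probe, and all their probes were detected on both arrays. LIN9, beside MIXL1, had differences of 0.20 and 0.28, and FREM1, beside CER1, read 153 in substate 1 and 107 in substate 2 (-0.32). AATF, beside LHX1, read 2655 and 2982 (0.36). Most other neighbours had no named probe.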
